A study of Nannochloropsis oceanica with 6 samples.

Results

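The 3 genes described here, out of 10481 measured in Nannochloropsis oceanica IMET1, are MYB119 (NO18G02390), Mybl1 (NO21G02390) and myb (NO10G02720), all annotated as MYB-type transcription factors. They were picked by gene ID because their transcript levels were known to differ between nitrogen-deprived and nitrogen-fed cultures and to move in opposite directions, so their own change between the conditions is given as a description with no test. N. oceanica is a unicellular marine alga that accumulates oil. Logarithmic-phase cells of the strain IMET1 were washed in seawater and placed in f/2 medium with nitrate (nitrogen repletion, NR) or in f/2 medium lacking nitrogen (nitrogen deprivation, ND). There were 3 cultures of 800 mL per condition, started at an OD750 of 2.5 under continuous light of 50 µmol m-2 s-1, and RNA was taken after 72 h. No genetic change separates the groups, and both share strain, light, washing and starting density.

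MYB proteins bind DNA through repeats of a helix-turn-helix fold. Animals carry a few members with several repeats, among them c-Myb, A-Myb and B-Myb, which act in cell proliferation and germ cell formation, whereas land plants carry a large family with functions in development, metabolism and stress. The 3R-type MYB proteins of plants, which resemble the animal ones, control genes of the G2 and M phases of the cell cycle. In the red alga Cyanidioschyzon merolae a MYB protein is known as an activator of nitrogen assimilation genes under nitrogen depletion. The names used here are those of the match in the Swiss-Prot protein database, so they carry no proof of role in this alga. The match in a second database was a hypothetical Selaginella protein for MYB119 and a homeodomain-like protein of Coccomyxa for Mybl1. Arabidopsis MYB119 acts in the cellularisation of the female gametophyte, mouse Mybl1 (A-Myb) in male meiosis, and Xenopus myb is the c-Myb proto-oncogene, while the plant matches of the alga's myb are a 3R-type protein of cacao, a Selaginella protein and the same Arabidopsis MYB119.

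The deposited annotation gave all 3 genes the same 4 gene ontology terms, for nuclear location, DNA-templated transcription and RNA polymerase II-specific DNA binding, and 13 genes in all carried the 4 terms. MYB119 and myb were also assigned to one KEGG orthology group (MYB, C-MYB), which 7 genes carried. MYB119 had 2 transcript models, 1 of them added to the annotation, myb had 2 annotated models, and Mybl1 had 16, of which 15 were added. All counts of the 3 genes were whole to within 0.005 in the 6 libraries. They thus gave no sign of reads divided with another gene model, though whole counts do not exclude it.

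MYB119 was among the more abundant transcripts of nitrogen-fed cells and was low after nitrogen deprivation. Its level, in TPM (transcript abundance scaled for gene length and library total), was 138.28, 147.55 and 140.41 in NR cultures 1 to 3 and 26.41, 29.19 and 26.33 in ND cultures 1 to 3. Every ND library was below every NR library, with the closest libraries 4.74 times apart. The underlying counts were 1117, 1036 and 987 in NR and 206, 258 and 261 in ND. Means were 142 ± 4.86 and 27.3 ± 1.63 TPM (SD, n = 3), which moved the gene from the 86.1st to 87.0th percentile of all genes in NR libraries to the 33.3rd to 36.1st in ND libraries. With counts normalised by the trimmed mean of M-values, the level went from 278 ± 6.13 to 43.2 ± 2.97 CPM (counts scaled to library size), a log2 change of -2.69 ± 0.07 (SE), or 6.43 times lower. This log2 change was the 259th lowest of 9329 tested genes.

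Mybl1 was also lower without nitrogen, by less. Its TPM values were 110.61, 119.22 and 130.68 in NR and 58.28, 59.81 and 55.40 in ND, and the counts ran from 1221 to 1328 in NR and from 632 to 775 in ND. The conditions did not overlap, and the closest libraries stood 1.85 times apart. The mean went from 120 ± 10.1 to 57.8 ± 2.24 TPM, and from 341 ± 25.4 to 127 ± 5.31 normalised CPM. The log2 change was -1.42 ± 0.06, or 2.68 times lower, the 747th lowest of the tested genes.

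The gene myb went the other way. Its TPM values were 20.70, 20.50 and 22.07 in NR and 70.43, 80.08 and 79.37 in ND, with counts of 165 to 189 in NR and 594 to 873 in ND. All ND libraries were higher than all NR libraries, by at least 3.19 times. The mean went from 21.1 ± 0.85 to 76.6 ± 5.38 TPM and from 46.7 ± 1.45 to 132 ± 8.70 normalised CPM, a log2 change of 1.50 ± 0.08, or 2.83 times higher. Its change ranked 341st from the top.

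**Figure D1:**
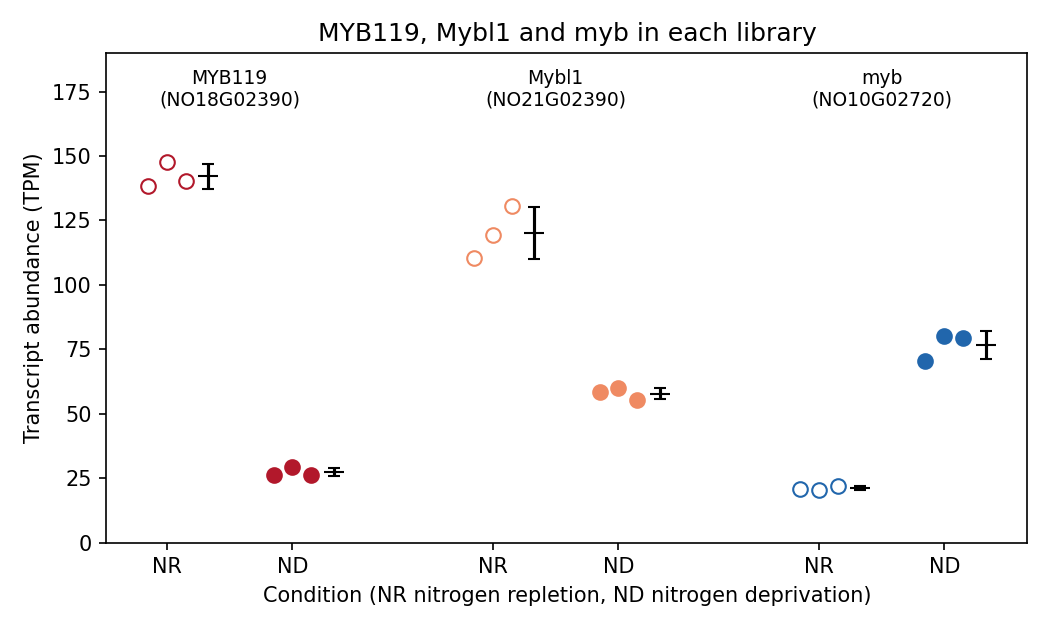
Transcript abundance (TPM, vertical axis) of MYB119, Mybl1 and myb in each library, with open circles for NR, filled circles for ND, and black bars for mean ± SD (n = 3). MYB119 lies between 138.28 and 147.55 in NR and at or under 29.19 in ND, while myb lies at or under 22.07 in NR and at or above 70.43 in ND.

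The opposite changes reversed the order of the 3 transcripts. In NR the ratio of MYB119 to myb, per length, was 6.68, 7.20 and 6.36 in cultures 1 to 3, and in ND it was 0.38, 0.37 and 0.33. The ratio of Mybl1 to myb likewise went from between 5.34 and 5.92 to between 0.70 and 0.83. MYB119 stood above Mybl1 by 1.07 to 1.25 times in NR and below it in ND, at 0.45 to 0.49 of its level. The ranges of the 3 genes did not overlap each other within either condition.

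Replicates of these genes were close together. The biological coefficient of variation fitted by edgeR was 0.036 for MYB119, 0.044 for Mybl1 and 0.044 for myb, against a median of 0.055 over all tested genes. These values lay at the 6.8th, 29.5th and 29.7th percentile of all tested genes, so lower values than those of Mybl1 and myb were not rare. Libraries of all 3 genes did not overlap between the conditions, and the same held for 73.5% of the tested genes. Of all tested genes 71.2% passed the test (edgeR's quasi-likelihood test, Benjamini-Hochberg adjusted p under 0.05), 35.7% higher and 35.5% lower in ND; 9.39% were called at 2 times or more higher and 12.5% at 2 times or more lower. Because the 3 genes were picked on this contrast, their place in it supports nothing further. In bulk RNA, fewer cells with a transcript and less transcript per cell cannot be told apart.

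The depth and scaling of the libraries touch these values. The 6 libraries held between 3972986 and 5693513 estimated counts, and the scaling factors split by condition, at 0.89 to 0.908 in NR and 1.111 to 1.123 in ND. The cause of this split was not tested. Over all genes the median log2 change was 0.02 with these factors, 0.13 with upper-quartile factors and 0.34 where only library totals were used, so the changes here are relative to the typical gene. Against library totals alone the log2 changes were -2.37 for MYB119, -1.10 for Mybl1 and 1.82 for myb, so no direction depended on this choice. On the TPM scale, to which no such factors were applied, the ratios of the means were 5.20 for MYB119 and 2.08 for Mybl1, both lower in ND, and 3.63 for myb, higher in ND. The authors' deposited table lists log2 changes of -2.70 for MYB119, -1.43 for Mybl1 and 1.49 for myb.

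MYB119 also differed in the mixture of its transcript models. The deposited length of a gene is averaged over its transcripts by their abundance, and for MYB119 it was 3128, 3088 and 3120 bases in NR cultures 1 to 3 and 3251, 3255 and 3180 bases in ND cultures 1 to 3. The longest NR value was below the shortest ND value. The mean went from 3112 ± 21.1 to 3229 ± 42.2 bases (SD, n = 3), a difference of 116 bases or 3.74%, against a median absolute difference of 0.81% over 3160 genes with several transcripts and at least 50 counts per library. It lay at the 83.7th percentile of these absolute differences, so changes of this size were not rare among them. Mybl1, at 4400 ± 12.4 and 4388 ± 23.9 bases, and myb, at 3492 ± 19.9 and 3492 ± 8.0 bases, had overlapping lengths. Counts per transcript model were not analysed here, so the share of each model is not known.

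**Figure D2:**
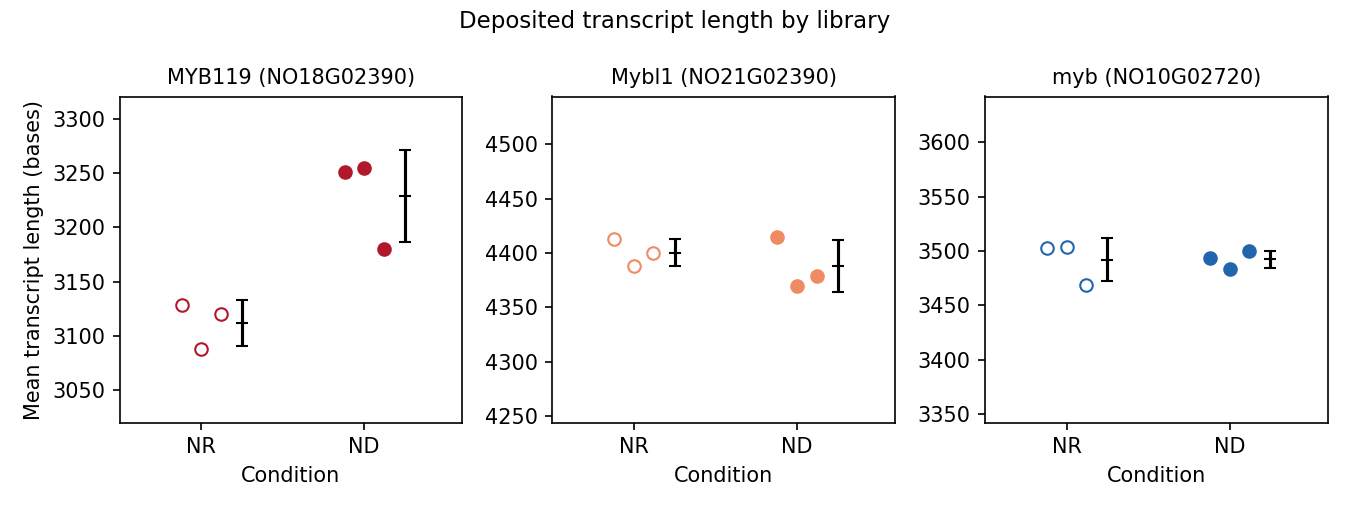
Deposited transcript length (bases, vertical axis, not starting at 0) of each gene by library, with open circles for NR, filled circles for ND, and black bars for mean ± SD (n = 3). The MYB119 values of 3180 to 3255 bases in ND lie above those of 3088 to 3128 in NR, and the values of Mybl1 and myb overlap.

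Besides these 3 genes, 24 had MYB in their name or description, and 20 of them had enough counts to be tested. Of the 20, 13 fell and 4 rose at an adjusted p under 0.05, with a median log2 change of -0.36, beside 35.5% lower, 35.7% higher and a median of 0.02 over all tested genes. Scaled by library totals alone, 7 were called lower and 6 higher, and the median was -0.05, beside 23.0% lower, 54.4% higher and a median of 0.34 over all tested genes in that fit. In 11 of the 17 called genes, 4 higher and 7 lower, the call and its direction held in each of the 15 other fits that tested the gene. One of the 24, Tom1 (NO04G02890), is named as a target of Myb and is a vesicle sorting protein, not a MYB protein.

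Several MYB-named genes that fell have matches among the 3R-type and animal proteins. Another gene named myb (NO29G01790) fell from 205 ± 18.8 to 99.4 ± 8.26 CPM, a log2 change of -1.05 ± 0.07 (edgeR adjusted p = 9.17e-11). It shares both its name and its KEGG orthology group with the myb gene whose level was higher in ND. The 3R-type genes MYB3R5 (NO23G00850, -0.97 ± 0.07, edgeR adjusted p = 1.06e-10) and MYB3R5 (NO27G01050, -0.61 ± 0.09, edgeR adjusted p = 3.65e-06) fell as well, and so did MYB (NO28G00530), from 107 ± 8.78 to 62.2 ± 2.46 CPM. In contrast MYB3R3 (NO06G02880), named after an Arabidopsis repressor of mitotic genes, rose from 8.84 ± 0.29 to 14.2 ± 1.98 CPM (0.69 ± 0.19, edgeR adjusted p = 0.00277). MYB3R-2 (NO15G02860) was not called, at 20.2 ± 2.38 and 19.3 ± 1.01 CPM.

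Genes matched to the many MYB-like proteins of the amoeba Dictyostelium moved both ways. Of these mybJ (NO02G01990) fell from 1407 ± 20.1 to 999 ± 51.9 CPM (-0.50 ± 0.05). The gene mybA (NO02G01040) fell from 471 ± 22.8 to 248 ± 5.65 CPM (-0.93 ± 0.05, edgeR adjusted p = 1.42e-12). A second mybA (NO25G01500) rose from 50.8 ± 4.54 to 81.5 ± 0.69 CPM (0.68 ± 0.08), and mybH (NO09G00490) rose from 77.4 ± 1.78 to 111 ± 6.50 CPM (0.52 ± 0.07).

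Among the remaining MYB-named genes the direction differed, and several calls depended on the scaling. MYBS2 (NO02G00550), named after a rice factor of sugar response, rose from 1.12 ± 1.01 to 7.29 ± 0.49 CPM (2.64 ± 0.44, edgeR adjusted p = 1.86e-05). Its counts were 7.84, 4.83 and 0 in NR and 35.17, 38.16 and 49.85 in ND, so its reads had been divided with another model. The MYBS2 model next in ID order (NO02G00540, divided reads), at 137 ± 3.63 and 129 ± 5.68 CPM, was not called. It was called higher with library totals alone (0.23) and lower with limma on log2(FPKM + 1) (-0.72, limma adjusted p = 0.00716), so no direction is given for it. V-MYB (NO24G00620, -0.69 ± 0.17), V-MYB (NO10G02690, -0.41 ± 0.13) and MYB118 (NO20G01320, -0.19 ± 0.06) fell, as did RR24 (NO09G02490, -0.32 ± 0.06), matched to a response regulator of rice. Tom1 fell too (-0.49 ± 0.08). Scaled by library totals alone, none of these 5 genes was called, and the change of MYB118, whose reads were divided, was 0.13. With limma on log2(FPKM + 1) MYB118 was called higher (0.13, limma adjusted p = 0.0468), so its direction depends on the scaling. The call of V-MYB (NO10G02690) was also lost without NR culture 1 (-0.26, edgeR adjusted p = 0.114).

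Of 3 successive models named cdc5l, a splicing factor of the MYB superfamily, NO01G01860 (-0.68 ± 0.09) and NO01G01850 (-0.25 ± 0.10) matched MYB in their description and fell. Both had divided reads. The call of cdc5l NO01G01850 was lost with library totals alone (0.07), without NR culture 2 (-0.12, edgeR adjusted p = 0.272), without ND culture 2 (-0.22, edgeR adjusted p = 0.0902) and without ND culture 3 (-0.25, edgeR adjusted p = 0.0634). It was also lost with upper-quartile factors, with DESeq2 and with limma on log2(FPKM + 1) (0.09) and on log2(FPKM + 0.1) (0.1). The direction of this model therefore depends on the scaling. The other gene named Mybl1 (NO12G01000) did not pass the test, at 49.1 ± 3.52 and 47.5 ± 0.12 CPM, but was called higher with library totals alone (0.27). Of the 4 untested genes, mybl1 (NO02G06050) and mybH (NO11G02380) had no count in any library, which allows up to 0.265 CPM in NR and 0.179 CPM in ND by counting error (3 counts over a group). MYB98 (NO14G00760) had 1 to 3 counts per library and MYB3R1 (NO19G02180) had 3 to 11.

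**Figure D3:**
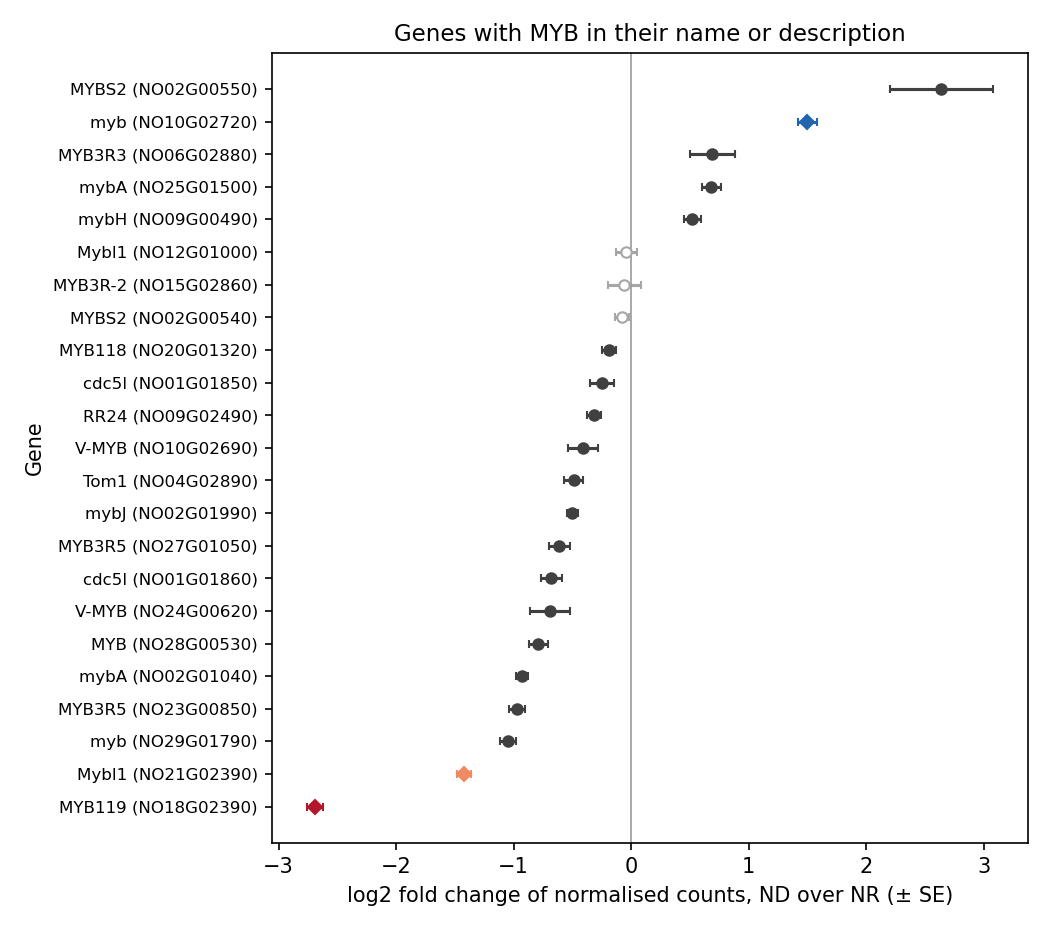
Log2 fold change of normalised counts, ND over NR, with its SE (horizontal axis) for the 23 MYB-named genes with enough counts. Diamonds mark MYB119 (-2.69), Mybl1 (-1.42) and myb (1.50), filled grey circles the other called genes and open circles genes that did not pass. Tom1 is included because its description names Myb.

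Among the 5 other genes in the KEGG orthology group of MYB119 and myb, a grouping chosen after the values were seen, 4 fell and 1 rose, with a median of -0.41, against 2 lower and 1 higher with library totals alone. Over all tested genes 71.2% were called, and with library totals alone 23.0% were lower and 54.4% higher. The 1 that rose was mybA (NO25G01500). The authors' deposited table, in which the smallest absolute log2 change is 1.0, lists 5 MYB-named genes. Besides the 3 described above they are MYBS2 (NO02G00550), at a log2 change of 2.90 in that table, and myb (NO29G01790), at -1.06 in that table.

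Per length, the most abundant MYB-named transcript in both conditions was mybJ, at 627 ± 14.6 TPM in NR and 572 ± 27.3 TPM in ND, followed by mybA (NO02G01040), at 239 ± 14.5 and 162 ± 3.47 TPM. MYB119 ranked 3rd in NR, and its range overlapped that of MYB3R5 (NO23G00850), at 136 ± 7.63 TPM and ranked 4th, which in turn overlapped Mybl1 in rank 5. In ND, MYB119 ranked 18th and overlapped MYB3R5 (NO27G01050), at 30.8 ± 1.71 TPM. Mybl1 ranked 11th in ND, and its range overlapped those of mybA (NO25G01500, 59.1 ± 2.17 TPM) and mybH (NO09G00490, 53.2 ± 3.02 TPM) on either side. The gene myb moved from rank 18, where its range overlapped those of both V-MYB genes at 18.8 TPM, to rank 8, where it overlapped Tom1 at 80.8 ± 5.35 TPM and MYBS2 (NO02G00540) at 60.6 ± 14.7 TPM. Together the 3 genes held 13.5%, 13.9% and 14.0% of the summed TPM of the 27 MYB-named genes in NR cultures 1 to 3 and 8.9%, 9.5% and 9.5% in ND cultures 1 to 3. The share of MYB119 went from between 6.7% and 7.2% to between 1.5% and 1.6%, and that of myb from between 1.0% and 1.1% to between 4.0% and 4.7%.

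**Figure D4:**
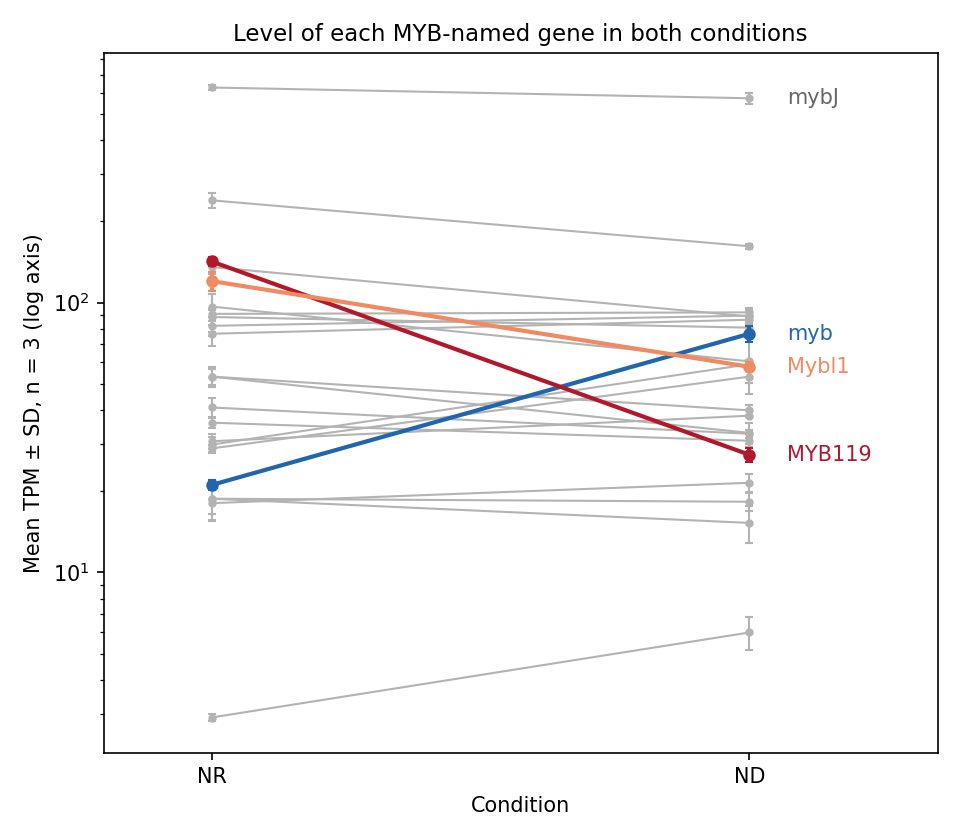
Mean TPM ± SD (n = 3, log axis) in NR and ND of the 22 MYB-named genes with a mean above 1 TPM in both conditions. Grey lines are the other genes, with mybJ at the top at 627 and 572 TPM, and the coloured lines of MYB119 and myb cross between 142 and 27.3 TPM and 21.1 and 76.6 TPM.

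Proteins with the related SANT domain, which contact histone tails in chromatin complexes, formed a further list of 6 genes. Of these 4 rose and 1 fell, so 83.3% were called beside 71.2% of all tested genes, and the median was 0.71. By library totals alone 5 were called higher and 0 lower, beside 54.4% and 23.0% of all tested genes. Smarcc2 (NO13G03030), a subunit of the SWI/SNF chromatin remodelling complex, rose from 23.7 ± 3.35 to 48.5 ± 1.17 CPM (1.04 ± 0.11, edgeR adjusted p = 6.47e-08). The histone acetyltransferase adaptor ADA2 (NO07G04540) rose from 37.8 ± 0.95 to 64.2 ± 4.30 CPM (0.77 ± 0.09). The splicing factor model cdc5l (NO01G01840) fell (-0.47 ± 0.10) but was not called with library totals alone. DNAJC2 (NO12G03440, divided reads), a ribosome-associated chaperone, was not called at 0.37 ± 0.17, but was called higher with library totals alone (0.68). CCDC57 (NO06G02140, 1.70 ± 0.14) entered the list by a match of letters and is a coiled-coil protein with no SANT domain in its description.

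In animals B-Myb joins the DREAM complex of retinoblastoma, E2F, DP and LIN proteins, and plant 3R-type MYB proteins work with the counterparts of these. Of 9 E2F and DREAM genes tested, 4 rose, 3 fell and 2 did not pass, with a median of 0.48. The share called was 77.8%, near the 71.2% of all tested genes. With library totals alone 6 were higher and 1 was lower, beside 54.4% and 23.0% of all tested genes. RB1 (NO29G00080), a retinoblastoma-related repressor of cell cycle entry, rose from 37.7 ± 1.68 to 76.7 ± 7.85 CPM (1.03 ± 0.09, edgeR adjusted p = 5.82e-09). E2FE (NO01G01190), matched to an atypical E2F of Arabidopsis, rose from 115 ± 5.21 to 205 ± 10.8 CPM (0.84 ± 0.06, edgeR adjusted p = 2.03e-10). TCX6 (NO25G01380), one of the CXC-domain proteins related to LIN54 of animals, rose from 4.11 ± 1.14 to 10.8 ± 0.84 CPM (1.37 ± 0.25).

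Another CXC-domain gene, TCX2 (NO21G01430), fell from 75.8 ± 3.45 to 50.5 ± 3.96 CPM (-0.59 ± 0.08, edgeR adjusted p = 3.27e-06). E2FA (NO07G02600, -0.37 ± 0.12) and the E2F-associated EAPP (NO10G02120, -0.33 ± 0.09, divided reads) also fell, but neither was called with library totals alone. The call of E2FA was also lost without NR culture 3 (-0.28, edgeR adjusted p = 0.0588) and without ND culture 3 (-0.27, edgeR adjusted p = 0.0645). TCX3 (NO09G01180) rose from 9.04 ± 1.26 to 14.5 ± 2.27 CPM (0.68 ± 0.19). A second TCX3 (NO15G02180, 0.48 ± 0.22) and the DP partner TFDP2 (NO29G01020), at 28.1 ± 3.04 and 31.1 ± 0.68 CPM, did not pass, though both were called higher with library totals alone. ALY3 (NO07G01800), assigned to LIN9 by its KEGG orthology and picked after its values were seen, rose from 33.3 ± 2.97 to 78.5 ± 4.13 CPM (1.24 ± 0.09).

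**Figure D5:**
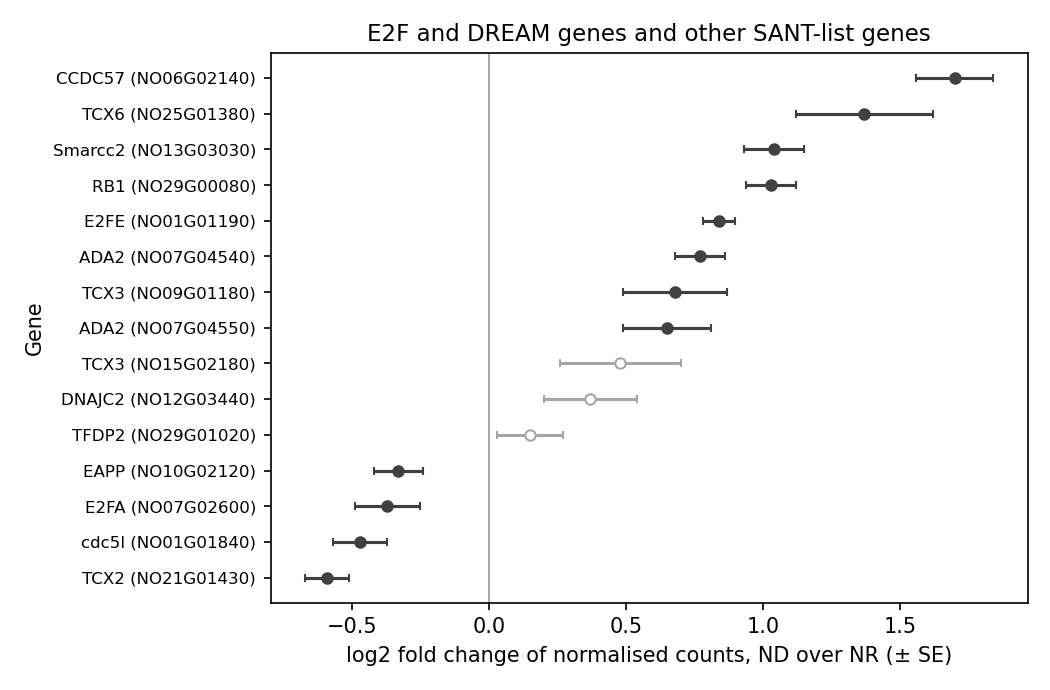
Log2 fold change of normalised counts, ND over NR, with its SE (horizontal axis) for the 9 E2F and DREAM genes and the 6 genes of the SANT list. Filled circles passed the test and open circles did not; RB1 (1.03) and E2FE (0.84) lie to the right of 0 and TCX2 (-0.59) to the left.

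The list of mitosis and cyclin genes, matched by words in names and descriptions, was called about as often as all tested genes. 3R-type and B-Myb proteins are known to act on genes of mitosis, but the list is wider. It includes genes such as ARSG (NO20G01460), described as an arylsulfatase, and Dock6 (NO13G03050), so its counts are not those of MYB targets. Of 109 tested, 39 rose, 32 fell and 38 did not pass, with a median of 0.07. The share called was 65.1%, beside 71.2% of all tested genes, and the median absolute log2 change was 0.47, beside 0.50. The 3 cdc5l models are in this list as well. By library totals alone 63 were called higher and 18 lower, with a median of 0.38, beside 54.4% higher, 23.0% lower and a median of 0.34 over all tested genes. The smallest p-values among the falls were those of the kinesin unc-104 (NO03G01550, -2.05 ± 0.07, divided reads), the cyclin CCNY (NO12G03480, -1.05 ± 0.04) and the condensin subunit smc2 (NO06G01720). The level of smc2 went from 190 ± 13.2 to 76.0 ± 1.16 CPM (-1.32 ± 0.07). Among the rises they were those of KAP115 (NO10G00950, 1.48 ± 0.09), a kinesin-associated protein, CSR1 (NO21G01200, 1.05 ± 0.07, divided reads), described as a phosphatidylinositol transfer protein, and CDC48B (NO09G03900, 1.80 ± 0.13).

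Some mitotic cyclins and cyclin-dependent kinases, singled out after their values were seen, did not move as one. A cyclin B fragment (NO07G04620) rose from 46.9 ± 2.10 to 89.9 ± 6.22 CPM (0.94 ± 0.08), and the cyclin-dependent kinase nimX (NO27G00550) rose from 53.6 ± 2.42 to 102 ± 3.63 CPM (0.93 ± 0.08). Among other kinases of this kind, CDK2 (NO19G01390) fell (-0.99 ± 0.09). CDC2 (NO03G02910) rose by less than nimX (0.26 ± 0.11, edgeR adjusted p = 0.0308), and its libraries overlapped between the conditions. The gene cycB (NO23G01320) rose as well (0.49 ± 0.07). CYCB2-1 (NO12G01680) fell from 42.5 ± 2.02 to 19.4 ± 2.23 CPM (-1.14 ± 0.12). CYCB1-1 (NO25G01730) was not called, at 17.9 ± 1.64 and 17.2 ± 4.06 CPM.

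The described genes whose profile over the 6 libraries came closest to that of each of the 3 MYB genes were found by the root mean square difference of log2 CPM, each gene centred on its own mean, among 8167 genes with a mean of at least 10 CPM. In a design of 2 conditions this measure follows mainly the size of the change, and the profiles share their libraries. Nearest to MYB119 was the serine carboxypeptidase-like gene CBP31 (NO03G05670), with a difference of 0.0518 and levels of 72.5 ± 4.59 in NR and 11.2 ± 0.78 CPM in ND. It was followed by an endoglucanase (NO17G00920, 0.0755, divided reads) and by the photosystem I antenna gene LHCA5 (NO12G02640, 0.0768), at 3173 ± 100 and 461 ± 1.56 CPM.

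Nearest to Mybl1 were a transmembrane protein (NO04G01090, 0.0469, divided reads), a chloroplast MET1-like protein (NO02G02130, 0.0501) and a chloroplast adenylate kinase (NO05G03020, 0.0530). The MET1-like gene had 424 ± 13.0 CPM in NR and 156 ± 5.74 in ND. Nearest to myb, of all genes compared, was UBE2J1 (NO14G00250, 0.0478), a ubiquitin-conjugating enzyme, at 25.7 ± 0.77 and 74.8 ± 4.84 CPM. Next came the ABC transporter modF (NO24G01260, 0.0634, divided reads) and purC (NO20G00700, 0.0684), an enzyme of purine synthesis, at 149 ± 1.85 and 432 ± 17.1 CPM.

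Models next to each gene by the order of gene IDs differed between the 3. Of the 4 around MYB119, NO18G02370 was called lower (-0.31 ± 0.08, edgeR adjusted p = 0.00191). Its mean was 127.6 ± 16.3 TPM in NR and 130.4 ± 9.2 TPM in ND, so its direction depends on the scaling. The ribosomal protein gene rplJ (NO18G02380), ilvD2 (NO18G02400) and nsfl1c (NO18G02410) did not pass the test. All 4 around Mybl1 fell, beside 35.5% of all tested genes called lower, and none of the 4 has a description. They include NO21G02370, from 98.8 ± 3.19 to 35.2 ± 1.86 CPM (-1.49 ± 0.08, edgeR adjusted p = 1.2e-12, divided reads), and NO21G02400, from 22.6 ± 1.51 to 1.50 ± 1.03 CPM (-3.95 ± 0.28, edgeR adjusted p = 9.33e-11). For NO21G02380, whose reads were divided, the level was 8.76 ± 1.56 CPM in NR and every ND count was 0. Around myb, the helicase gene rhp16 (NO10G02700, 0.81 ± 0.08) and larp7 (NO10G02730, 1.04 ± 0.12, divided reads) rose, LHP1 (NO10G02740, -0.73 ± 0.10, divided reads) fell and an aspartyl aminopeptidase gene (NO10G02710) did not pass. The distance between these models is not known from the files, as gene IDs carry no coordinates.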

How the data were processed

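RNA of 6 cultures, 3 NR and 3 ND, was sequenced. Tools named in the submitters' processing notes, with no roles, are STAR, StringTie, featureCounts, Picard, Trim Galore and edgeR; the genome build, the strand setting and the tool behind the counts are not given in sources used here. Per the file headers, the authors deposited an expected count per gene without normalisation. TPM and FPKM values were also deposited, per the file headers, scaled to length and library total, with a length averaged over transcripts (read as a score in bases). The authors' deposited comparison covers 2057 genes, each with its log2 fold, p-value and FDR. Of 160 reference genes none matched a gene ID, so no sequence or coordinate is given.

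Counts were rounded, filtered with filterByExpr, scaled by the trimmed mean of M-values and tested over all genes by the quasi-likelihood method of edgeR 4.0.16 under R 4.3.3, with Benjamini-Hochberg adjustment at 0.05; the SE is the absolute change over the square root of F. Alternatives used limma 3.58.1, DESeq2 1.42.0, other scalings and filters, and each library left out. Between 79.6% and 80.9% of genes had whole counts in a library; divided reads mark genes whose counts were not all whole, and their values are uncertain. Replicates differed by more than counting error (chi-square per degree of freedom 1.73 to 3.05). The members, lists and tests were chosen with earlier results of these data known. Lists were matched to gene names and descriptions. By rule, all tested MYB genes were named, with the 3 rises and 3 falls with the smallest p-values of other lists. The 3 nearest profiles and 2 neighbouring models on each side were named as well. Other genes named fall outside this rule, and only some of them are marked as chosen after their values were seen.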

Additional observations from a re-analysis of the deposited data

How the results depend on the processing

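MYB119, Mybl1 and myb kept their direction in all 15 other fits. Under upper-quartile factors the log2 changes were -2.58, -1.31 and 1.61, with library totals alone -2.37, -1.10 and 1.82, with limma on log2(FPKM + 1) -2.35, -1.07 and 1.74, and on log2(FPKM + 0.1) -2.41, -1.09 and 1.81; the median of all genes was 0.13, 0.34, 0.34 and 0.36 in these 4 fits, against 0.02. Leaving out each library gave -2.75 to -2.64 for MYB119, -1.47 to -1.36 for Mybl1 and 1.47 to 1.55 for myb. The other MYB and SANT genes called numbered 22 (21 to 22 with a library left out). Genes called in the mitosis list numbered 71 (64 to 70), and E2F and DREAM genes 7 (7 in each). These were 84.6%, 65.1% and 77.8% of the tested genes of each list, beside 71.2% of all tested genes. With library totals alone the MYB and SANT genes split into 11 higher and 7 lower, against 8 and 14. Over all tested genes 54.4% were higher and 23.0% lower with library totals alone, against 35.7% and 35.5%. Matching KEGG and KOG text as well, an alternative chosen after seeing the data, gave 11 E2F and DREAM genes, of which 3 are membrane proteins matched by letters (HVA22G, Reep6 and YOP1). Without Tom1 and CCDC57, 20 of 24 MYB and SANT genes were called. With a replicate block the counts were 23, 71 and 7 and the log2 changes -2.69, -1.42 and 1.50. Whether the replicate numbers pair the cultures is not known. Deviations of libraries with the same number correlated weakly (r = 0.019 to 0.089), and 5 of 6 libraries correlated best with their own number.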
